A study of Homo sapiens with 12 samples.

Results

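The genes described here are 10 well-known inflammatory targets of NF-kappaB: the chemokines CXCL8, CXCL1, CXCL2, CXCL3 and CCL2, the cytokines IL6 and IL1B, and the feedback regulators NFKBIA, TNFAIP3 and BIRC3. They were taken by symbol from tables that list 60583 genes, and all 10 were found. The libraries are TT-seq libraries, which capture RNA made during a short labelling pulse and so report transcription under way rather than stored mRNA. U2OS, a human osteosarcoma line, received siRNA directed at INTS11 (siINTS11) or a control (siCtrl), and RNA was taken 48 h after transfection. The same 2 siRNAs were used in U2OS-AsiSI, a U2OS line carrying AsiSI-ER, a restriction enzyme joined to an oestrogen receptor domain, and that line was also given OHT, the ligand that moves the fusion into the nucleus, for 1 h. Each of the 4 groups had 3 libraries. The labels give OHT for the U2OS-AsiSI groups alone, so the integrated enzyme, the DNA breaks it makes and OHT itself cannot be told apart in a comparison of the lines. They do not say whether the 3 libraries of a group came from separate cultures, so p-values measure the spread between these libraries, which may be technical.

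NF-kappaB is a dimer of Rel-family proteins that IkappaB inhibitors hold in the cytoplasm. Signals from cytokine receptors, Toll-like receptors or damaged DNA activate the IKK kinase, IkappaB is degraded, and the freed dimer enters the nucleus and binds a short, nearly palindromic DNA motif in the promoters of its targets. Some targets call in white blood cells, and others, among them the IkappaB gene NFKBIA itself, switch the pathway off again. INTS11 is the endonuclease of Integrator, a complex that cleaves nascent RNA on RNA polymerase II at small nuclear RNA genes and near many promoters.

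The promoter letters are printed because the chemokine genes of chromosome 4, some with reads and some with none, carry nearly the same site at nearly the same place. They are from RefSeq (GRCh38.p14), in which 9 of the 10 members matched an entry; CCL2 was not matched. Each run is written 5′ to 3′ on the strand of its gene, and capitals mark a match to GGNNNTTCC, the inner letters of the NF-kappaB motif, on either strand. The first 4 runs are the 100 bases before the RefSeq start of CXCL8 (chr4:73740469-73740568, plus strand), CXCL1 (chr4:73869293-73869392, plus strand), CXCL2 (chr4:74099196-74099295, minus strand) and CXCL3 (chr4:74038690-74038789, minus strand).
CXCL8: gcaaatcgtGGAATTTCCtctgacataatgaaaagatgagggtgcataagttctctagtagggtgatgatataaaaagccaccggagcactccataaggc
CXCL1: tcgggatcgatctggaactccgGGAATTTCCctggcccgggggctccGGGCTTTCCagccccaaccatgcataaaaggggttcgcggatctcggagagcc
CXCL2: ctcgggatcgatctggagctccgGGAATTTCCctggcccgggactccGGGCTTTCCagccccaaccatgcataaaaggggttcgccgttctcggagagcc
CXCL3: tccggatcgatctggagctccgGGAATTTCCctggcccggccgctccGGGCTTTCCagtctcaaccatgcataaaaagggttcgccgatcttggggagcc
All 4 hold the letters GGAATTTCC, and CXCL1, CXCL2 and CXCL3 hold the second match GGGCTTTCC as well. Over the 250 bases before the start, CXCL1 and CXCL3 were identical at 81.4% of aligned positions, CXCL2 and CXCL3 at 73.4%, and CXCL1 and CXCL2 at 70.1%, against 43.9% to 47.9% for each of them with CXCL8.

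The same window of IL6 (chr7:22727100-22727199, plus strand), NFKBIA (chr14:35404750-35404849, minus strand) and TNFAIP3 (chr6:137867159-137867258, plus strand) also held matches, with 2 in TNFAIP3. In BIRC3 the match lay farther upstream, in the 60 bases at chr11:102317259-102317318 on the plus strand.
IL6: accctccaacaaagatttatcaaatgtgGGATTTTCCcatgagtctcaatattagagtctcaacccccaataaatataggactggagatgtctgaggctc
NFKBIA: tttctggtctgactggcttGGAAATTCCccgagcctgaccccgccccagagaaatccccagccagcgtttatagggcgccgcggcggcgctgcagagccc
TNFAIP3: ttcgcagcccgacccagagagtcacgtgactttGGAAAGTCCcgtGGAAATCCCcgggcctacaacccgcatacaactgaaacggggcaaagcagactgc
BIRC3: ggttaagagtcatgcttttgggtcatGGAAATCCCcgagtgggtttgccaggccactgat
In the 300-base RefSeq promoters, GGNNNTTCC was found on either strand in 8 of 9 members, all but IL1B, and in 20.1% of all 35116 promoters. The full NF-kappaB consensus, most of whose matches overlap those of GGNNNTTCC, was found in 7 of 9 members, all but CXCL8 and IL1B, and in 11.3% of all promoters. TGANTCA, the motif of AP-1, was found in CXCL8 alone of the 9 and in 7.71% of all promoters. TTGCNNAA, the motif of C/EBP factors, was found in CXCL2, IL6 and IL1B and in 10.5% of all promoters. The TATA box letters TATAAA were found in CXCL8 on the strand of the gene. In NFKBIA they lay on the opposite strand alone, so its own strand reads TTTATA there. On either strand, 11.5% of all promoters held them. The other motifs were also searched on either strand. A match describes the letters in these windows only, and the members were chosen as known targets, so the shares are a description.

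The libraries held 20704611 to 38065726 assigned reads. Levels are given as CPM, reads scaled to a common library size. INTS11, the targeted gene, was at 10.1, 8.87 and 10.1 CPM in the U2OS libraries with siCtrl and at 7.85, 7.06 and 7.18 CPM in those with siINTS11, and it fell by 0.42 on the log2 scale (standard error, SE, 0.09, edgeR adjusted p = 6.08e-05). In U2OS-AsiSI it was at 9.63, 11 and 9.82 CPM under siCtrl and at 9.01, 9.33 and 9.48 CPM under siINTS11, a log2 difference of -0.13 (SE 0.08, edgeR adjusted p = 0.172). An siRNA acts on finished RNA, so new transcription of its target is no measure of the knockdown and does not check the labels. Of the osteoblast and mesenchymal markers, BGLAP was at 0. It overlaps a gene on its own strand, so that 0 may come from the counting, which was not tested. COL1A2 had 2 to 13 reads per library, SP7 had 4 to 10 and IBSP had 3 to 12. Of all 11 markers, 10 had a read, and 7 or 8 had at least 30 reads summed over a group. Their summed level was 1245 to 1282 CPM in U2OS siCtrl, 974 to 1027 in U2OS siINTS11, 1102 to 1135 in U2OS-AsiSI siCtrl and 909 to 946 in U2OS-AsiSI siINTS11, so it was lower with siINTS11 in both lines, without overlap. Of the 7 tested in each line, 2 were higher and 4 lower in U2OS, and 3 were higher and 3 lower in U2OS-AsiSI. RUNX2 fell by 0.84 and CDH11 by 1.28 in U2OS on the log2 scale, and in U2OS-AsiSI they fell by 1.07 and by 1.27, while ALPL rose by 1.47 in U2OS and 1.31 in U2OS-AsiSI. Of 10 white blood cell markers, 7 or 8 had a read in each group, and 2 or 3 had at least 30 reads summed over a group. Their summed level was 7.58 to 8.05 CPM in U2OS siCtrl, 7.98 to 8.68 in U2OS siINTS11, 7.73 to 8.66 in U2OS-AsiSI siCtrl and 9.29 to 9.68 in U2OS-AsiSI siINTS11, so that sum was higher with the members in the last group. Most of these reads came from CSF1R, with 124 to 182 per library, and ITGAM, with 48 to 117. ITGAM rose with siINTS11 by 0.90 in U2OS (log2, SE 0.14, edgeR adjusted p = 7.44e-07) and by 0.55 in U2OS-AsiSI (SE 0.14, adjusted p = 0.000874). CSF1R fell by 0.30 in U2OS (SE 0.11, edgeR adjusted p = 0.014) and stood at 0.13 in U2OS-AsiSI (SE 0.11, adjusted p = 0.281). Of the 4 tested in U2OS, 1 was higher and 2 were lower, and of the 2 tested in U2OS-AsiSI 1 was higher. MS4A1, at 12 to 16 reads under siCtrl and 6 or 7 under siINTS11, fell by 1.21 in U2OS (edgeR adjusted p = 0.00249). It passed the count filter through its siCtrl libraries, so that fall was built in. CD3E, LYZ, PTPRC and CD14 had at most 7 reads in any library and AIF1 had none. The part of either marker list in the members' levels was not tested.

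Among the members, 2 chemokine genes, CXCL8 and CXCL3, were transcribed on chromosome 4 while their neighbours CXCL1 and CXCL2 were listed at 0 reads in all 12 libraries. A count of 0 allows up to 3 reads, or 0.0788 to 0.145 CPM depending on the library, counting error only. In the stretch of 18 listed genes from CXCL8 to CXCL2, every other gene had at most 3 reads in any library; CXCL6, the nearest chemokine gene to CXCL8, had 0 to 3, CXCL5 had 0 to 2, and PF4, PF4V1 and PPBP had 0. CXCL1, CXCL2 and CXCL3 are near copies of one another, and reads that map to several places may be dropped or shared. Of the 50-base windows of their spliced transcripts, 94.3% in CXCL1, 90.8% in CXCL2 and 94.7% in CXCL3 occurred in neither of the other 2. Introns, which nascent RNA also covers, were not compared, and neither was the rest of the genome. The read length is not given in the sources used here.

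**Figure D1:**
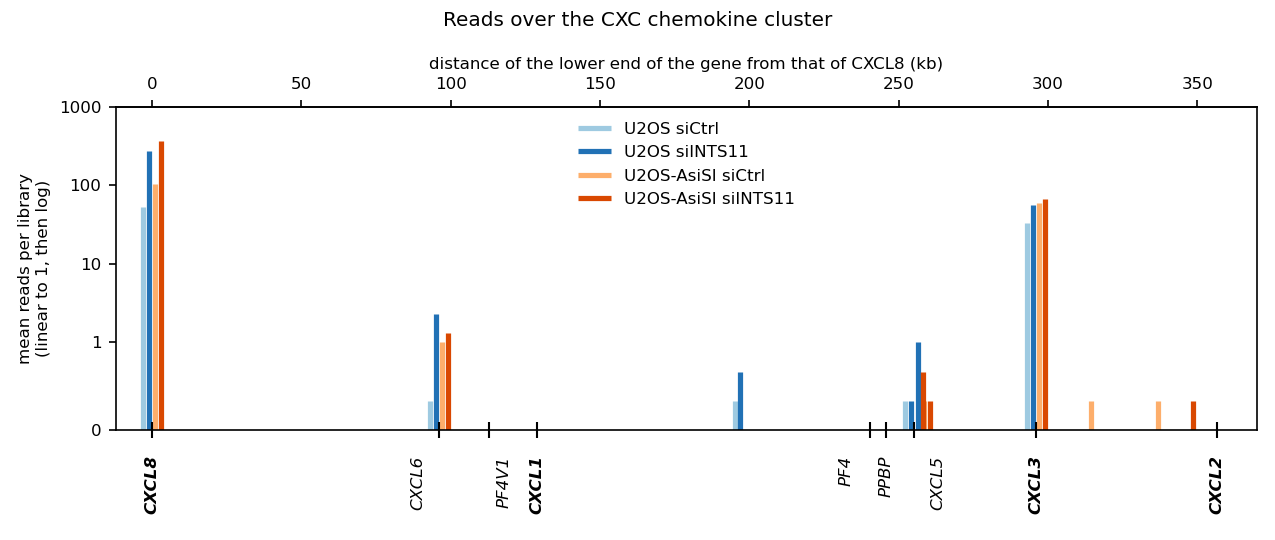
Mean reads per library (vertical axis, linear up to 1 and logarithmic above) in the 4 groups, for the listed genes from CXCL8 to CXCL2, placed by distance in kilobases from CXCL8 (upper horizontal axis). Names mark the chemokine genes, with the members in bold, and the unnamed short bars are noncoding genes, pseudogenes and unnamed transcripts. Only CXCL8 and CXCL3 stand above a mean of 10 reads.

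CXCL8 (ENSG00000169429, chr4:73740541-73743716, plus strand, a protein-coding gene of 3.18 kb) encodes interleukin-8, the main attractant of neutrophils. With siCtrl its reads numbered 67, 60 and 33 in U2OS, and with siINTS11 they numbered 302, 246 and 277. In U2OS-AsiSI it had 104 reads in each of the 3 siCtrl libraries and 393, 296 and 409 in the siINTS11 libraries. Every siINTS11 library lay above every siCtrl library, across both lines. As CPM, with libraries scaled by edgeR's TMM factors, U2OS siCtrl stood at 2.44, 1.70 and 1.16 (mean 1.77 ± 0.641, SD, n = 3) and U2OS siINTS11 at 9.12, 8.04 and 8.84 (8.67 ± 0.559). U2OS-AsiSI siCtrl stood at 3.53, 3.26 and 3.8 (3.53 ± 0.271) and U2OS-AsiSI siINTS11 at 13.7, 13.0 and 14.0 (13.6 ± 0.50). CXCL8 thus rose with siINTS11 by 2.27 on the log2 scale in U2OS (SE 0.14, 4.84-fold, edgeR quasi-likelihood test, Benjamini-Hochberg adjusted p = 3.65e-16). In U2OS-AsiSI it rose by 1.96 (SE 0.09, 3.88-fold, edgeR adjusted p = 1.71e-17). In bulk libraries such as these, more RNA per cell and more cells making it cannot be told apart. By log2 change CXCL8 ranked 204 of 20687 genes tested in U2OS and 358 of 20441 in U2OS-AsiSI.

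CXCL3 (ENSG00000163734, chr4:74036589-74038807, minus strand, 2.22 kb), another attractant of neutrophils, was a low gene with 28 to 71 reads per library. Its level in U2OS was 1.13, 1.19 and 0.987 CPM with siCtrl and 2.14, 1.47 and 1.69 CPM with siINTS11. In U2OS-AsiSI it was 2.07, 1.69 and 2.34 CPM under siCtrl and 2.44, 2.86 and 2.33 CPM under siINTS11. The groups stood apart in U2OS and overlapped in U2OS-AsiSI by 1 library on each side. CXCL3 rose in U2OS by 0.65 (log2, SE 0.19, 1.57-fold, edgeR adjusted p = 0.00249), and its log2 difference in U2OS-AsiSI was 0.33 (SE 0.16, edgeR adjusted p = 0.0639). Under DESeq2 the U2OS value missed the threshold at 0.63 (adjusted p = 0.0526), and with library totals in place of TMM factors the U2OS-AsiSI value passed it at 0.52 (edgeR adjusted p = 0.00544).

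CCL2 (ENSG00000108691, chr17:34255218-34257203, plus strand, 1.99 kb), which attracts monocytes, showed the smallest differences with siINTS11 of the members tested. In U2OS it stood at 3.49, 2.49 and 2.96 CPM with siCtrl and at 4.26, 3.79 and 3.32 CPM with siINTS11. In U2OS-AsiSI it stood at 4.17, 4.66 and 5.15 CPM under siCtrl and at 3.74, 4.97 and 4.72 CPM under siINTS11. The siRNA groups overlapped in both lines. In U2OS the difference of 0.34 (log2, SE 0.13, 1.26-fold) passed the test (edgeR adjusted p = 0.0243), but not under DESeq2 (0.30, adjusted p = 0.188), without U2OS siCtrl replicate 2 (0.22, edgeR adjusted p = 0.194) or without U2OS siINTS11 replicate 1 (0.24, edgeR adjusted p = 0.16). In U2OS-AsiSI the difference was -0.06 (SE 0.12, edgeR adjusted p = 0.675), and its sign changed with the scaling, to 0.13 with library totals.

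IL6 (ENSG00000136244, chr7:22725884-22732002, plus strand, 6.12 kb), the cytokine of the acute-phase response, had 35 to 80 reads per library. In U2OS it stood at 1.27, 1.33 and 1.48 CPM with siCtrl and at 1.75, 2.22 and 2.07 CPM with siINTS11, with no overlap. In U2OS-AsiSI it stood at 1.80, 1.97 and 2.23 CPM under siCtrl and at 2.55, 2.11 and 2.74 CPM under siINTS11, with an overlap. IL6 rose in U2OS by 0.53 (log2, SE 0.17, 1.45-fold, edgeR adjusted p = 0.00567). Its log2 difference in U2OS-AsiSI was 0.33 (SE 0.15, edgeR adjusted p = 0.061). Like CXCL3, it missed the threshold in U2OS under DESeq2 (0.51, adjusted p = 0.0863) and passed it in U2OS-AsiSI with library totals (0.51, edgeR adjusted p = 0.0055).

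A stretch of 28.3% of the listed span of IL6 lies opposite STEAP1B, a gene of the minus strand with 167 to 284 reads per library. STEAP1B moved differently from IL6 in U2OS, where it fell by 0.29 on the log2 scale (SE 0.09, edgeR adjusted p = 0.00462). Its difference in U2OS-AsiSI was 0.04 (SE 0.09, edgeR adjusted p = 0.68). IL1B (ENSG00000125538, chr2:112829751-112836816, minus strand, 7.07 kb), the fever-inducing cytokine of macrophages, had 0 reads in all 6 siCtrl libraries. In the siINTS11 libraries it had 0, 0 and 1 read in U2OS and 1, 0 and 2 reads in U2OS-AsiSI, all at or under the 3 reads that a count of 0 allows. CXCL1 (ENSG00000163739, chr4:73869393-73871308), CXCL2 (ENSG00000081041, chr4:74097040-74099196) and IL1B were too low to be tested in any comparison, which left 7 members.

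The feedback regulators carried most of the members' reads. NFKBIA (ENSG00000100906, chr14:35401511-35404749, minus strand, 3.24 kb) encodes IkappaB-alpha, the inhibitor that pulls NF-kappaB out of the nucleus. In U2OS it stood at 26.6, 23.6 and 23.2 CPM with siCtrl (24.5 ± 1.89) and at 34.6, 34.3 and 32.7 CPM with siINTS11 (33.9 ± 1.03). In U2OS-AsiSI it stood at 31.7, 31.4 and 34.7 CPM under siCtrl (32.6 ± 1.82) and at 43.0, 47.3 and 42.7 CPM under siINTS11 (44.3 ± 2.57). The siRNA groups did not overlap in either line. NFKBIA rose 1.36-fold in both lines, by 0.44 on the log2 scale in U2OS (SE 0.06, edgeR adjusted p = 5.75e-09) and by 0.45 in U2OS-AsiSI (SE 0.06, edgeR adjusted p = 2.8e-08).

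A limit of read density applies to NFKBIA most, and to CXCL8 in 1 group. NFKBIA was covered at a mean of 0.306 reads per base, and no gene over 1 kb in the tables exceeded 0.975 reads per base. When log counts were fitted on log library totals, the 101 genes covered at 0.3 to 0.5 reads per base had a median slope of 0.40, and the 1240 genes at 0.1 to 0.3 had one of 0.80, where a count that follows depth gives 1. At 0.03 to 0.1 reads per base, the range that holds TNFAIP3 and CCL2 in all 4 groups, the median slope was 1.02. CXCL8 stood at 0.0168 reads per base in U2OS siCtrl, 0.0866 in U2OS siINTS11, 0.0327 in U2OS-AsiSI siCtrl and 0.115 in U2OS-AsiSI siINTS11, where it entered the range with the slope of 0.80. What this does to the fold changes of NFKBIA and of CXCL8 in U2OS-AsiSI was not tested.

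TNFAIP3 (ENSG00000118503, chr6:137867214-137883312, plus strand, 16.1 kb) encodes a ubiquitin-editing enzyme that shuts down signalling to IKK. In U2OS it stood at 22.8, 21.4 and 17.5 CPM with siCtrl (20.6 ± 2.72) and at 37.8, 33.1 and 32.9 CPM with siINTS11 (34.6 ± 2.76). In U2OS-AsiSI it stood at 34.0, 33.6 and 36.9 CPM under siCtrl (34.8 ± 1.83) and at 42.5, 43.2 and 42.7 CPM under siINTS11 (42.8 ± 0.363). The siRNA groups stood apart in both lines, and U2OS siINTS11 overlapped with U2OS-AsiSI siCtrl. TNFAIP3 rose in U2OS by 0.72 (log2, SE 0.08, 1.65-fold, edgeR adjusted p = 1.63e-08) and in U2OS-AsiSI by 0.30 (SE 0.05, 1.23-fold, edgeR adjusted p = 7.69e-06). The noncoding gene WAKMAR2, which faces it across 6.34% of its span, rose by 1.09 in U2OS (log2, SE 0.15, edgeR adjusted p = 2.13e-08) and by 1.23 in U2OS-AsiSI (SE 0.14, edgeR adjusted p = 3.04e-09).

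BIRC3 (ENSG00000023445, chr11:102317450-102339403, plus strand, the longest member at 21954 bases) encodes a ubiquitin ligase that protects cells from death signals and acts in both arms of the pathway. In U2OS it stood at 7.75, 5.71 and 6.34 CPM with siCtrl (6.60 ± 1.05) and at 14.6, 15.1 and 14.7 CPM with siINTS11 (14.8 ± 0.248). In U2OS-AsiSI it stood at 12.6, 11 and 12.2 CPM under siCtrl (11.9 ± 0.821) and at 20.2, 15.9 and 19.2 CPM under siINTS11 (18.4 ± 2.28). No library of an siCtrl group reached the lowest of the siINTS11 group of its line. BIRC3 rose in U2OS by 1.15 (log2, SE 0.09, 2.22-fold, edgeR adjusted p = 3.34e-15) and in U2OS-AsiSI by 0.64 (SE 0.08, 1.56-fold, edgeR adjusted p = 2.92e-08). The listed gene AP000942.5 runs opposite 50.7% of BIRC3 with 2 to 30 reads per library, against 180 to 580 for BIRC3. It was too low to test in U2OS. In U2OS-AsiSI it rose by 2.0 (log2, SE 0.28, edgeR adjusted p = 3.26e-07). With 7 or 8 reads in the siCtrl libraries of that line, it passed the count filter through the siINTS11 libraries, so a rise was built in.

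Whether such facing genes shared reads was looked at over the whole tables. Of genes of at least 1000 bases lying wholly inside a gene of the opposite strand only, 78.5% had a read. Of those inside a gene of their own strand, 18.5% had one. Reads were thus assigned with regard to strand, as the directional library kit allows, and no member overlaps a gene on its own strand.

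**Figure D2:**
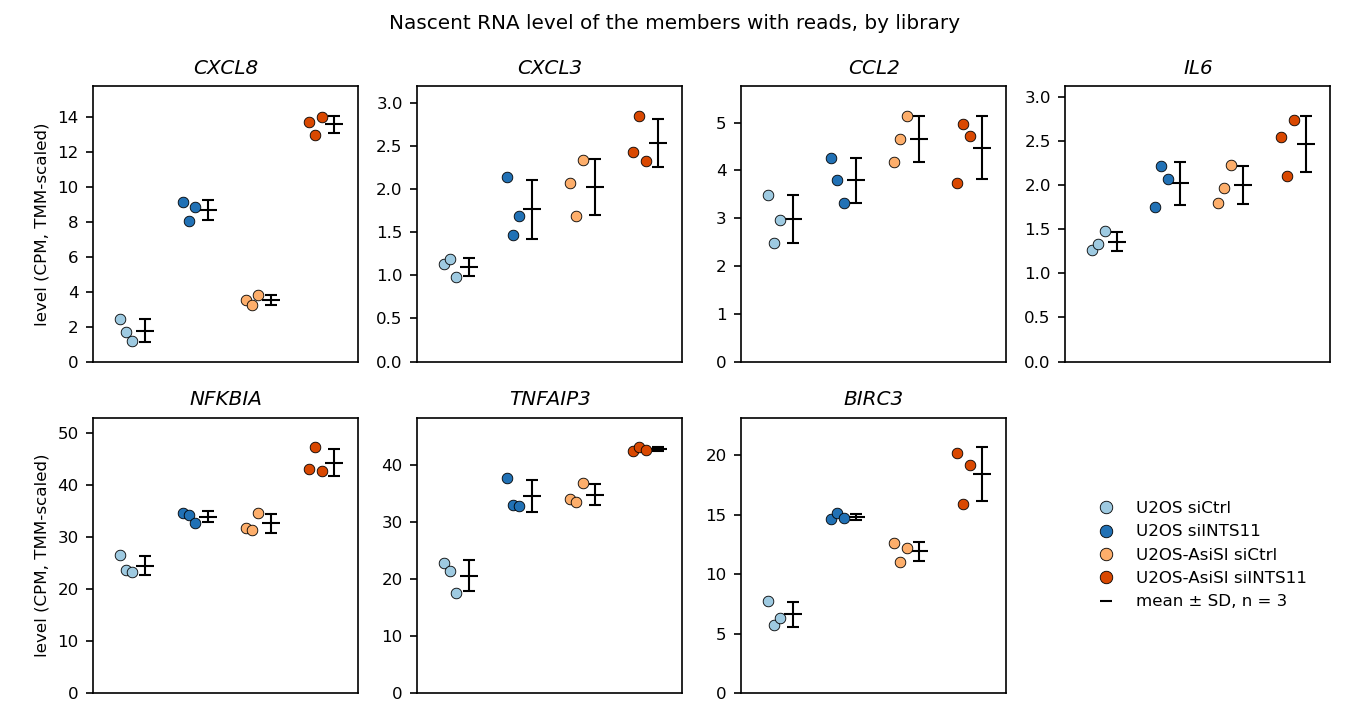
Level of the 7 members with more than 2 reads in any library, in CPM scaled by TMM factors (vertical axes start at 0 and differ between panels), with 1 point per library and the mean ± SD of 3 libraries beside each group. CXCL8 rises from 1.77 to 8.67 in U2OS and from 3.53 to 13.6 in U2OS-AsiSI, while CCL2 overlaps between the siRNAs in both lines.

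Counted over the members tested, 7 of 7 were higher with siINTS11 in U2OS and none was lower. In U2OS-AsiSI 4 of 7 were higher, CXCL8, NFKBIA, TNFAIP3 and BIRC3, and none was lower. These counts stand against a broad response of the whole table. Of all genes tested, 34.5% were higher and 32.4% lower in U2OS, and 35.4% were higher and 32.6% lower in U2OS-AsiSI. The members are short genes, and short genes leaned upward. Among genes no longer than BIRC3, 43.4% were higher and 14.9% lower in U2OS, and 46.8% and 14.3% in U2OS-AsiSI. Of 4583 protein-coding genes of that length, 1788 were higher and 692 lower in U2OS. In U2OS-AsiSI, 1920 of 4569 were higher and 717 lower. The median log2 difference of the members tested was 0.65 in U2OS and 0.33 in U2OS-AsiSI, beside 0.17 and 0.22 for genes of that length and 0.02 and 0.03 for all genes. With library totals in place of TMM factors, the median of all genes rose to 0.22 in both lines, 53% of genes were higher and 18.4% lower in U2OS, and 51.6% were higher and 19.7% lower in U2OS-AsiSI. The 4 members that passed in both lines stayed above siCtrl under both scalings.

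In U2OS, 6 of the 7 members, all but CCL2, had their 3 siINTS11 libraries above their 3 siCtrl libraries, which held for 38.2% of all genes tested. In U2OS-AsiSI the same held for 4 of 7, and for 36.4% of all genes tested.

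The question of whether siINTS11 acted differently in the 2 lines was put to all 12 libraries at once, as an interaction of siRNA and line. The log2 change was smaller in U2OS-AsiSI than in U2OS for 2 of 7 members, TNFAIP3 by -0.45 (SE 0.09, edgeR adjusted p = 0.00585) and BIRC3 by -0.54 (SE 0.13, edgeR adjusted p = 0.0148). Of all genes tested, 3.1% had a lower change in U2OS-AsiSI and 0.762% a higher one. Among genes no longer than BIRC3 these shares were 1.97% and 0.543%. Of 4732 protein-coding genes of that length, 156 had a lower change and 35 a higher one. With median-of-ratios factors the counts over all genes were 270 lower and 177 higher, in place of 668 and 164, and TNFAIP3 and BIRC3 still passed. Both calls were lost when 1 library was left out: without U2OS siCtrl replicate 3, TNFAIP3 stood at -0.30 (edgeR adjusted p = 0.0642) and BIRC3 at -0.46 (adjusted p = 0.0656), and no member passed. BIRC3 also missed the threshold without U2OS siCtrl replicate 2 (-0.43, edgeR adjusted p = 0.0548) and without U2OS-AsiSI siINTS11 replicate 2 (-0.44, adjusted p = 0.0543). The difference for CXCL8 was -0.35 (SE 0.19, edgeR adjusted p = 0.309), for CXCL3 -0.36 (SE 0.24, adjusted p = 0.452), for CCL2 -0.43 (SE 0.19, adjusted p = 0.201) and for IL6 -0.24 (SE 0.22, adjusted p = 0.607). For NFKBIA it was -0.03 (SE 0.08, edgeR adjusted p = 0.891). The passing of CXCL3, CCL2 and IL6 in U2OS alone is therefore not shown to be a difference between the lines.

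The lines also differed with the control siRNA. Under siCtrl, all 7 members tested were higher in U2OS-AsiSI than in U2OS and none was lower, where 17.8% of all genes tested were higher and 17.2% lower. Among genes no longer than BIRC3, 27.7% were higher and 4.32% lower. All members are protein coding, and of 4500 protein-coding genes of that length 1795 were higher and 138 lower. With library totals, 24.7% of all genes tested were higher and 11.9% lower, and the 7 members still passed. The median log2 difference of the members was 0.76, against 0.13 for genes of that length, 0.16 for the protein-coding ones among them and 0.01 for all genes. In each of the 7, every U2OS-AsiSI siCtrl library stood above every U2OS siCtrl library, which held for 23% of all genes tested.

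By role, the chemokine CXCL8 was higher by 1.00 (log2, SE 0.17, edgeR adjusted p = 3.75e-05), CXCL3 by 0.87 (SE 0.19, adjusted p = 0.000416) and CCL2 by 0.66 (SE 0.13, adjusted p = 0.00018). For CCL2 that value stood beside the 0.34 and -0.06 given above for siINTS11 in the lines. IL6 was higher by 0.55 (SE 0.17, edgeR adjusted p = 0.0123), a call that was lost under DESeq2 (0.55, adjusted p = 0.0864), with all libraries thinned to 20704611 reads (0.37, edgeR adjusted p = 0.172) and without U2OS-AsiSI siCtrl replicate 3 (0.48, edgeR adjusted p = 0.0675). Of the feedback regulators, NFKBIA was higher by 0.42 (SE 0.06, edgeR adjusted p = 3.17e-06), TNFAIP3 by 0.76 (SE 0.07, adjusted p = 6.7e-09) and BIRC3 by 0.87 (SE 0.10, adjusted p = 3.47e-08). CXCL8 ranked 60, CXCL3 108 and BIRC3 111 by log2 difference among the 19935 genes tested.

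Under siINTS11 the lines differed in the same direction for 5 of 7 members, with none lower, where 22.2% of all genes tested were higher and 21.4% lower. Among genes no longer than BIRC3, 34.4% were higher and 5.82% lower, and with library totals 27.1% of all genes were higher and 16.1% lower. Of 4614 protein-coding genes no longer than BIRC3, 2104 were higher and 255 lower. CXCL8 was higher in U2OS-AsiSI by 0.69 (log2, SE 0.08, edgeR adjusted p = 1.18e-09) and CXCL3 by 0.54 (SE 0.16, adjusted p = 0.00469). NFKBIA was higher by 0.42 (SE 0.05, edgeR adjusted p = 7.62e-09), TNFAIP3 by 0.34 (SE 0.05, adjusted p = 9.86e-07) and BIRC3 by 0.36 (SE 0.07, adjusted p = 4.72e-05). CCL2, at 0.26 (SE 0.12, edgeR adjusted p = 0.0748), and IL6, at 0.35 (SE 0.15, adjusted p = 0.0589), did not pass. CXCL3 lost its call under DESeq2 (0.54, adjusted p = 0.0532), which left 4 members, and with library totals CCL2 (0.31, edgeR adjusted p = 0.0427) and IL6 (0.39, adjusted p = 0.0354) passed, which made 7. Without 1 library, CCL2 passed without replicate 1 of either siINTS11 group, and IL6 without replicate 2 of either. The line comparisons use the same libraries as the siRNA comparisons, so the sets of values are not independent of one another.

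**Figure D3:**
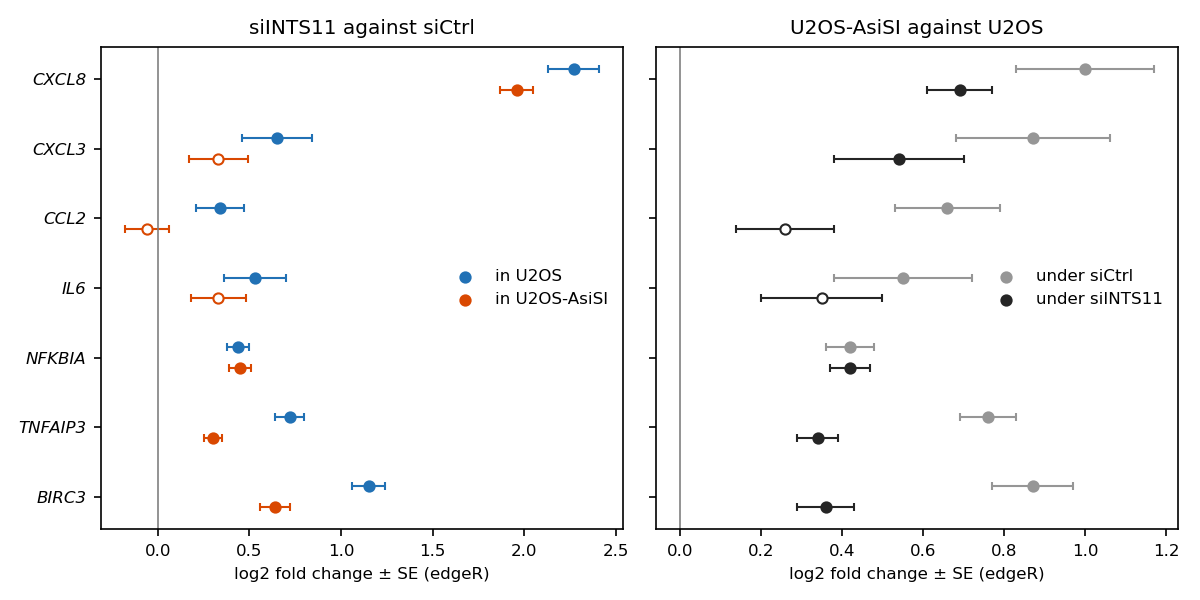
Log2 fold change with its standard error (edgeR, horizontal axes) for the 7 members tested, for siINTS11 against siCtrl in each line (left) and for U2OS-AsiSI against U2OS under each siRNA (right). Filled points passed an adjusted p of 0.05 and open points did not: CCL2 in U2OS-AsiSI sits at -0.06, and CXCL8 at 2.27 and 1.96 lies far to the right of the others.

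Levels can be compared between genes only per length, as CPM per kb of the listed span. NFKBIA was the highest member in all 4 groups, at 7.56 ± 0.585 CPM per kb in U2OS siCtrl and 13.7 ± 0.793 in U2OS-AsiSI siINTS11 (SD, n = 3). In both siCtrl groups the order after NFKBIA was CCL2, TNFAIP3, CXCL8, CXCL3, BIRC3 and IL6. The libraries of CCL2 and TNFAIP3 overlapped there, as did those of CXCL8 and CXCL3, and the other neighbours did not. With siINTS11, CXCL8 took the second place in both lines, at 2.73 ± 0.176 CPM per kb in U2OS (from 0.556 ± 0.202) and 4.28 ± 0.158 in U2OS-AsiSI (from 1.11 ± 0.0853). The order below it was TNFAIP3, CCL2, CXCL3, BIRC3, IL6 and IL1B. In U2OS siINTS11 the neighbours TNFAIP3 and CCL2 overlapped, as did CXCL3 and BIRC3, and in U2OS-AsiSI siINTS11 no neighbours did. IL6 was the lowest member with more than 2 reads in every group, at 0.222 ± 0.0175 CPM per kb in U2OS siCtrl and 0.403 ± 0.0524 in U2OS-AsiSI siINTS11.

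The genes with the profile most like that of each member over the 12 libraries were found by the root mean square log2 distance after centring, among the 13556 or 13557 genes with a mean of at least 100 reads. For CXCL8 they were the long noncoding gene AC115284.3 (0.241), the inflammasome sensor NLRP3 (0.265) and DMBT1 (0.273). For CXCL3, itself low, they were AC012615.1 (0.116), EMP1 (0.141) and another member, TNFAIP3 (0.143). For BIRC3 they were RGS16 (0.139), AC060765.1 (0.165) and LCP1 (0.165). No other member appeared among the 3 nearest of any member. CXCL3, IL6, IL1B, CXCL1 and CXCL2 had means under 100 reads, so they could not appear as a nearest gene. For CCL2 the nearest was MPV17L2 (0.133), for IL6 LTBP3 (0.121), for NFKBIA SNHG7 (0.0355) and for TNFAIP3 SOWAHC (0.0879). These distances describe 12 libraries in 4 groups and carry no test.

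The rest of the pathway was followed through 6 lists holding 83 genes other than the members. Of the 65 tested in U2OS, 33 were higher with siINTS11 and 17 lower, and of the 66 tested in U2OS-AsiSI 34 were higher and 16 lower. Of all genes tested, 34.5% were higher and 32.4% lower in U2OS, and 35.4% and 32.6% in U2OS-AsiSI. The siINTS11 counts of each list below stand against these shares, and the lists were not matched for gene length. Risers that passed the count filter only through their siINTS11 libraries are named below, and their rises were built in. The Rel-family subunits moved in both directions. Of the 5, 1 was higher and 2 were lower in U2OS, and 2 were higher and 1 lower in U2OS-AsiSI, with median log2 differences of -0.06 and -0.02. RELB, the subunit of the noncanonical arm, rose by 0.67 in U2OS (log2, SE 0.10, edgeR adjusted p = 0.000102) and by 0.46 in U2OS-AsiSI (SE 0.05, adjusted p = 1.78e-09). RELA, the main activating subunit, fell by 0.13 in U2OS (log2, SE 0.06, edgeR adjusted p = 0.0321) and stood at -0.02 in U2OS-AsiSI (SE 0.05, adjusted p = 0.804). NFKB1, its partner, fell by 0.16 in U2OS (log2) and stood at -0.05 in U2OS-AsiSI. REL fell by 0.20 in U2OS-AsiSI (log2) and stood at -0.06 in U2OS, and NFKB2 rose by 0.18 in U2OS-AsiSI and stood at 0.14 in U2OS.

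Of the other inhibitors and feedback regulators, 8 rose and 2 fell of 11 tested in U2OS (median log2 difference 0.26). In U2OS-AsiSI 7 rose and 2 fell of 12 (0.21). Short genes also rose more often than they fell, as given above, so the counts are not read as a result about this list. NFKBIE, an IkappaB like NFKBIA, rose by 0.56 in U2OS and 0.44 in U2OS-AsiSI (log2). The nuclear IkappaB NFKBIZ rose by 0.26 and 0.38. BCL3, another nuclear IkappaB, rose by 0.41 in U2OS and stood at -0.03 in U2OS-AsiSI, and it was the single gene of this list whose change differed between the lines (-0.48, SE 0.11, edgeR adjusted p = 0.0139). CYLD, which removes the ubiquitin chains that carry the signal, fell by 0.23 in U2OS and by 0.19 in U2OS-AsiSI. NFKBIB was untested in U2OS and stood at -0.14 in U2OS-AsiSI.

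Of 20 genes tested for IKK and the proteins upstream of it, 5 rose and 10 fell in U2OS (median -0.11). In U2OS-AsiSI 7 rose and 11 fell (median -0.12). Short genes fell less often than all genes, as given above, and no background of the length of these genes was set beside the counts. The counts are therefore not read as a result about this list. MAP3K7, the kinase that activates IKK, fell by 0.52 in U2OS and by 0.43 in U2OS-AsiSI (log2), and the adaptor kinase RIPK1 fell by 0.24 and by 0.26. IKBKB and CHUK, the catalytic subunits of IKK, stood at -0.07 and -0.09 in U2OS, and CHUK fell by 0.14 in U2OS-AsiSI, where IKBKB stood at -0.02. IKBKG, the regulatory subunit of IKK, rose by 0.92 in U2OS (SE 0.05, edgeR adjusted p = 2.85e-19) and 1.07 in U2OS-AsiSI (SE 0.06, adjusted p = 3.07e-16). IKBKG has a near-identical pseudogene copy, so its reads are uncertain. IRAK4 was not found by symbol and was not analysed here.

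Of the inducing ligands and receptors, 5 of 8 tested rose and 1 fell in U2OS (median 0.48), and 4 rose and 1 fell in U2OS-AsiSI (0.53). The risers in both lines include TNFRSF1B, with 3 to 8 reads in the U2OS siCtrl libraries and 7 to 14 in those of U2OS-AsiSI. It passed the count filter through its siINTS11 libraries, so its rise was built in and is no support. IL1A, the interleukin-1 made by many non-immune cells, rose from 1.11 ± 0.142 to 2.74 ± 0.299 CPM in U2OS (log2 1.26, SE 0.17, edgeR adjusted p = 1.22e-08) and from 1.75 ± 0.235 to 4.39 ± 0.386 CPM in U2OS-AsiSI (1.34, SE 0.14, adjusted p = 9.46e-10). Its receptor IL1R1 rose by 0.41 and 0.54. TNF had 0 to 6 reads per library and was not tested. TNFRSF1A, the main TNF receptor, stood at -0.06 in U2OS and -0.03 in U2OS-AsiSI, and LTBR at 0.14 and 0.08, none of which passed. Among the receptors of the members' own cytokines, 2 of 4 tested rose and 1 fell in U2OS, and 1 rose in U2OS-AsiSI. IL6R, which binds the IL6 product, rose by 0.42 and 0.43. Its signalling partner IL6ST fell by 0.12 in U2OS and stood at -0.10 in U2OS-AsiSI. CXCR1, CXCR2 and CCR2 had at most 11 reads in any library.

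Other induced targets of NF-kappaB rose in 12 of 17 tested in U2OS, with 1 lower (median 0.80), and in 13 of 17 in U2OS-AsiSI, with 1 lower (median 0.70). CCL20, a chemokine for dendritic cells, rose from 5.52 ± 0.552 to 13.8 ± 0.916 CPM in U2OS (log2 1.30, SE 0.09, edgeR adjusted p = 7.02e-17) and from 7.94 ± 0.489 to 20.5 ± 1.67 CPM in U2OS-AsiSI (1.38, SE 0.08, adjusted p = 7.91e-16). SOD2, the mitochondrial superoxide dismutase, rose by 0.34 and 0.17. LIF fell by 0.16 in U2OS and stood at 0.08 in U2OS-AsiSI, and PTGS2, the inducible cyclooxygenase, stood at -0.23 and 0.13, neither passing. ICAM1 had 2 to 9 reads per library and was not tested. Over the whole list, 7 of 17 rose by more than 1 on the log2 scale in U2OS and 8 of 17 in U2OS-AsiSI. For scale, the 1.09 of WAKMAR2 ranked 1689 of 20687 genes tested in U2OS. The 1.07 of IKBKG ranked 1730 of 20441 in U2OS-AsiSI. CXCL8 was exceeded by CSF2 in U2OS, at 2.51, and by BCL2A1, MMP9 and CSF2 in U2OS-AsiSI, at 2.46, 2.43 and 2.34. These 3 were named after their values were seen. In the U2OS siCtrl libraries BCL2A1 had 4 to 6 reads, CSF2 8 to 22 and MMP9 8 to 17. There they passed the count filter through their siINTS11 libraries, so a rise in U2OS was built in and is no support. BCL2A1, with 12 to 15 reads in the U2OS-AsiSI siCtrl libraries, also needed its siINTS11 libraries to pass there. The rise of BCL2A1 in U2OS-AsiSI is therefore no support either. The counts and medians of this list include these genes, all 3 in U2OS and BCL2A1 in U2OS-AsiSI.

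Between the lines under siCtrl, 34 of the 64 genes tested in these lists were higher in U2OS-AsiSI and 2 were lower. Over all genes tested the shares were the 17.8% higher and 17.2% lower given above, and among genes no longer than BIRC3 they were 27.7% and 4.32%. Of 4500 protein-coding genes no longer than BIRC3, 1795 were higher and 138 lower. Of the Rel-family subunits, 4 of 5 were higher, RELB by 0.81, NFKB2 by 0.44, RELA by 0.43 and NFKB1 by 0.24, while REL stood at 0.05. Of the other induced targets, 12 of 17 were higher and none was lower (median 0.49), among them CCL20 by 0.53 (log2). These 12 include BCL2A1 and CSF2, with 4 to 6 and 8 to 22 reads in the U2OS siCtrl libraries. Both passed the count filter through the U2OS-AsiSI libraries, so a higher level there was built in, also within the 34. NFKBIE, at 1.04 (SE 0.07, edgeR adjusted p = 7.77e-13), stood beside the 1.00 of CXCL8.

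**Figure D4:**
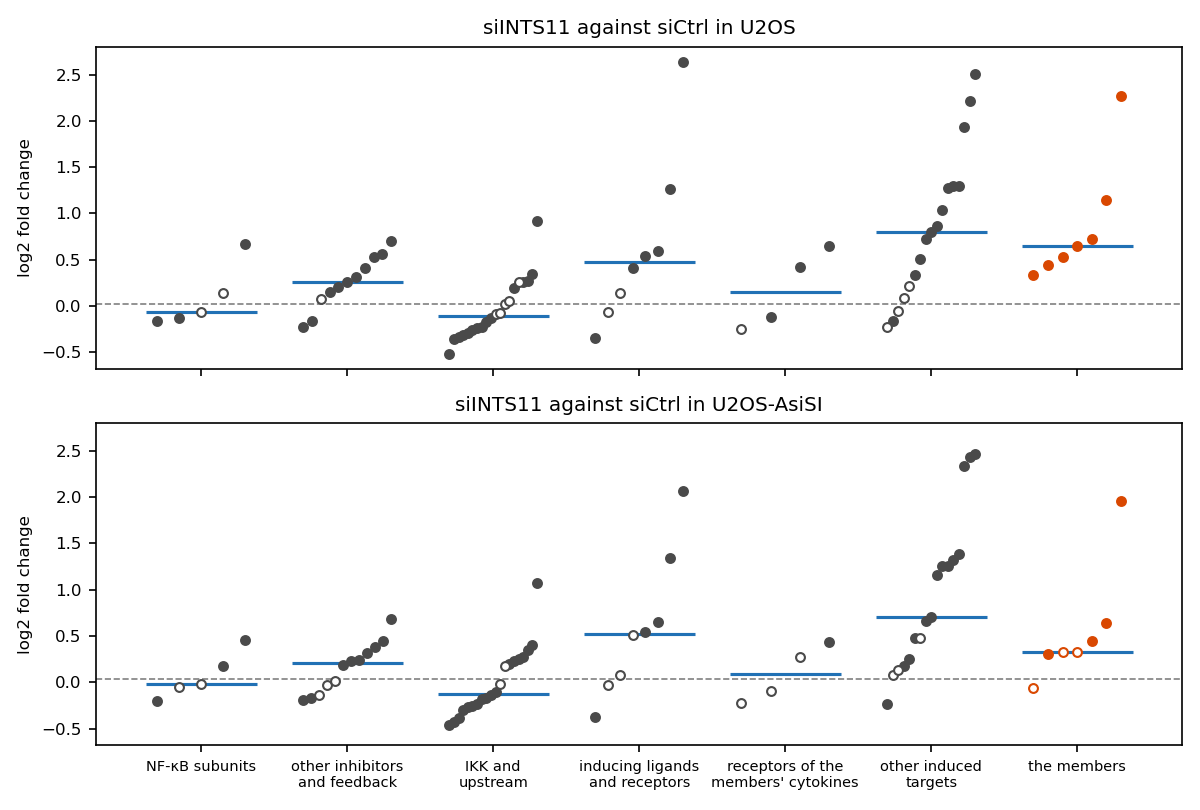
Log2 fold change of siINTS11 against siCtrl (vertical axes) for each tested gene of the 6 pathway lists (grey) and the 7 members tested (orange), in U2OS (top) and U2OS-AsiSI (bottom). Filled points passed an adjusted p of 0.05, the blue bars are list medians and the dashed line is the median of all genes tested. The bar of the other induced targets lies at 0.80 and 0.70, and that of IKK and upstream proteins at -0.11 and -0.12. Bars of the other induced targets and of the inducing ligands and receptors include genes whose rise was built in by the count filter.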

How the data were processed

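TT-seq libraries of nascent RNA from 4 groups of 3 were grouped and numbered by the sample titles. Each deposited table used gives the unnormalised counts per gene on hg38 of a U2OS library and a U2OS-AsiSI library. Trimmomatic 0.36, STAR 2.7, deepTools and featureCounts are named by the submitters' processing notes. The rules for multimapping, strand and duplicate reads are not given in the sources used here. No row is a yeast spike-in sequence, so levels are shares of a library. Of 55351 unique symbols, 75.1% matched GENCODE 29 in position. Counts were filtered (filterByExpr), scaled by TMM factors and tested with edgeR 4.0.16 (R 4.3.3; two-sided quasi-likelihood test, robust) over all genes passing, with Benjamini-Hochberg adjustment over all of them and a threshold of 0.05, for each comparison's libraries alone, or all 12 for the interaction; SE is the log2 change over the root of F. The tests were tried on simulated data. Levels are CPM with TMM factors over all 12 libraries. Alternatives were DESeq2 1.42.0, other scalings and filters, equal depth, a replicate block and leaving out each library. Named genes were the 10 members, INTS11 and the first 5 genes of each pathway list, plus neighbouring genes and cell markers. CSF2, MMP9, BCL2A1 and TNFRSF1B were named after their values were seen. The members and lists were chosen with earlier results of these data known.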

Additional observations from a re-analysis of the deposited data

Results flagged for a closer look

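Of the members, TNFAIP3 and BIRC3 had effects of siINTS11 that differed between the lines by the interaction test over all 12 libraries. For TNFAIP3 the log2 change in U2OS-AsiSI minus that in U2OS was -0.45 (SE 0.09, edgeR adjusted p = 0.00585), with changes of 0.30 and 0.72. For BIRC3 it was -0.54 (SE 0.13, edgeR adjusted p = 0.0148), with changes of 0.64 and 1.15. In both genes the U2OS siCtrl libraries stood lowest of the 4 groups, and all 3 siINTS11 libraries lay above all 3 siCtrl libraries in each line. Neither difference passed without U2OS siCtrl replicate 3. No group had enough libraries for a search for single outlying samples.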

How the results depend on the processing

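CXCL8, NFKBIA, TNFAIP3 and BIRC3 kept their direction and passed under all 13 alternatives in each of the 4 comparisons of 2 groups, with CXCL8 at 2.08 to 2.55 in U2OS and 1.90 to 2.15 in U2OS-AsiSI (log2, siINTS11 against siCtrl). The members passing in U2OS numbered 7, and 4 under DESeq2. Leaving out 1 library gave 6 to 7 in U2OS, 4 to 6 in U2OS-AsiSI, 0 to 2 for the difference between the lines, 6 to 7 for the lines under siCtrl and 5 to 6 under siINTS11, where the other alternatives gave 4 to 7. The direction changed for 2 values, both near 0 and passing nowhere. CCL2 in U2OS-AsiSI went from -0.06 to 0.13 with library totals and to 0.01 or 0.06 without U2OS-AsiSI siCtrl replicate 3 or siINTS11 replicate 1, with -0.13 to 0.06 over all sets without 1 library. The NFKBIA difference between the lines went from -0.03 to 0.00 with median-of-ratios factors, 0.02 without a filter, 0.04 with a mean count of at least 50, and 0.00 to 0.06 in the 4 sets without 1 library that changed it (0.00, 0.01, 0.02 and 0.06), with -0.09 the lowest of such sets. The cause was not tested. Over all genes, library totals gave 10959 higher and 3800 lower in U2OS against 7140 and 6706, and 10538 and 4033 in U2OS-AsiSI against 7236 and 6657. The count for the difference between the lines, 164 higher and 668 lower, moved most, for example to 188 and 163 without U2OS siCtrl replicate 3, 441 and 217 with the stricter filter, and 379 and 291 without one. Correlations of same-numbered deviations ran from -0.17 to 0.22, and those of differently numbered ones from -0.16 to 0.18. The highest, 0.22, was for replicate 1 of both siRNAs in U2OS-AsiSI. The main tests used no replicate block. With the replicate block the members passing stayed at 4, 7, 2, 7 and 5 in the order U2OS-AsiSI, U2OS, difference, lines under siCtrl and lines under siINTS11, while the genes differing between the lines fell to 103 and 428. Depth limits CXCL3 and IL6, with at most 80 reads in any library, and CXCL1, CXCL2 and IL1B, which could not be tested.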
